A study of Mus musculus with 23 samples.

Results

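The response of mouse tibialis anterior muscle to injections of 6-hydroxydopamine (6-OHDA) was measured at ZT0, the start of the light phase, by setting 4 injected muscles against 4 sham muscles across all genes with at least 1 FPKM in at least 2 of these 8 libraries. FPKM is fragments per kilobase of transcript and per unit of sequencing depth, a level corrected for transcript length. The filter kept 12012 of the 14500 genes in the deposited table, and the 8 libraries are part of a series of 23. In the 6-OHDA group, 4 female wild-type C57BL/6 mice aged 15, 15, 16 and 16 weeks had received 50 mg/kg 6-OHDA, dissolved in ascorbic acid, into the tibialis on alternate days under isoflurane, and the muscle was taken after a further wait. In the sham group, 4 female wild-type C57BL/6 mice aged 13, 13, 17 and 18 weeks had tibialis muscle that was not injected. Both groups were fed ad libitum, and total RNA of the whole muscle was sequenced. Because the sham muscles received no needle and no vehicle, the effects of needle, ascorbic acid, anaesthesia and 6-OHDA cannot be told apart in this comparison. The libraries are numbered 1 to 4 within each group, and values below are given in that order. The numbers only name the mice.

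6-OHDA is a toxin that catecholamine neurones take up through their own transporters, and it is used to remove sympathetic nerve endings, which in muscle run to vessels and to fibres. Injured muscle is known to be cleared by macrophages, to receive matrix from fibro-adipogenic progenitors, and to be rebuilt by satellite cells, the resident stem cells that switch on Myog, fuse and pass through embryonic and neonatal myosins. A fibre that loses its motor nerve re-expresses foetal acetylcholine receptor subunits, and the tibialis itself is mostly made of fast fibres that run on glycolysis.

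The libraries were first looked at as a whole. Reads recovered from the steps in the low values came to 26.3 to 34.5 M (mega) per 6-OHDA library and 25.5 to 28.0 M per sham library. The markers of skeletal muscle fibre summed to 31400 to 38860 FPKM in the 6-OHDA libraries and 48440 to 56410 FPKM in the sham libraries, the largest sums of the 16 cell types looked at in all 8 libraries. A first principal component held 50.3% of the variance and separated the groups. On it, 6-OHDA library 4 and sham library 2 lay nearest to the other group, and 6-OHDA library 1 lay furthest from the sham libraries. Because these are bulk samples, fewer cells of a type and less RNA per cell cannot be told apart in any value below.

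The injected muscles differed from sham in 34.9% of the genes tested. With limma and Benjamini-Hochberg adjusted p under 0.05, 2071 of 12012 genes (17.2%) were higher in 6-OHDA and 2125 (17.7%) were lower, and the median log2 difference over all genes was -0.05. The rises were the larger changes. Among the genes that passed, 996 were at least 2-fold higher and 334 at least 2-fold lower, while 242 were at least 4-fold higher and 43 at least 4-fold lower. The 2 groups of libraries did not overlap for 33.0% of the genes. The balance between higher and lower depends on the scale: with each library scaled to its own recovered reads, 4996 genes were higher (41.6%) and 483 lower (4.02%), and the median difference over all genes moved to 0.36. Leaving the mitochondrial genome out of those totals gave 3479 higher (29.0%) and 823 lower (6.85%). All differences below are on the authors' scale, and where the scaling to recovered reads, called own totals below, turned a list's median round, both medians are given. The filter also lets in genes expressed in a single group, which favours their direction. Of those named below, Mir453, Adgre1, Trem2, Clec4d, Cma1, Cpa3, Sfrp2, Dlk1, Chrng, Krt8, Gdnf and Adipoq were under 1 FPKM in every sham library. Hlf and Nr4a2 were under 1 FPKM in every 6-OHDA library.

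**Figure D1:**
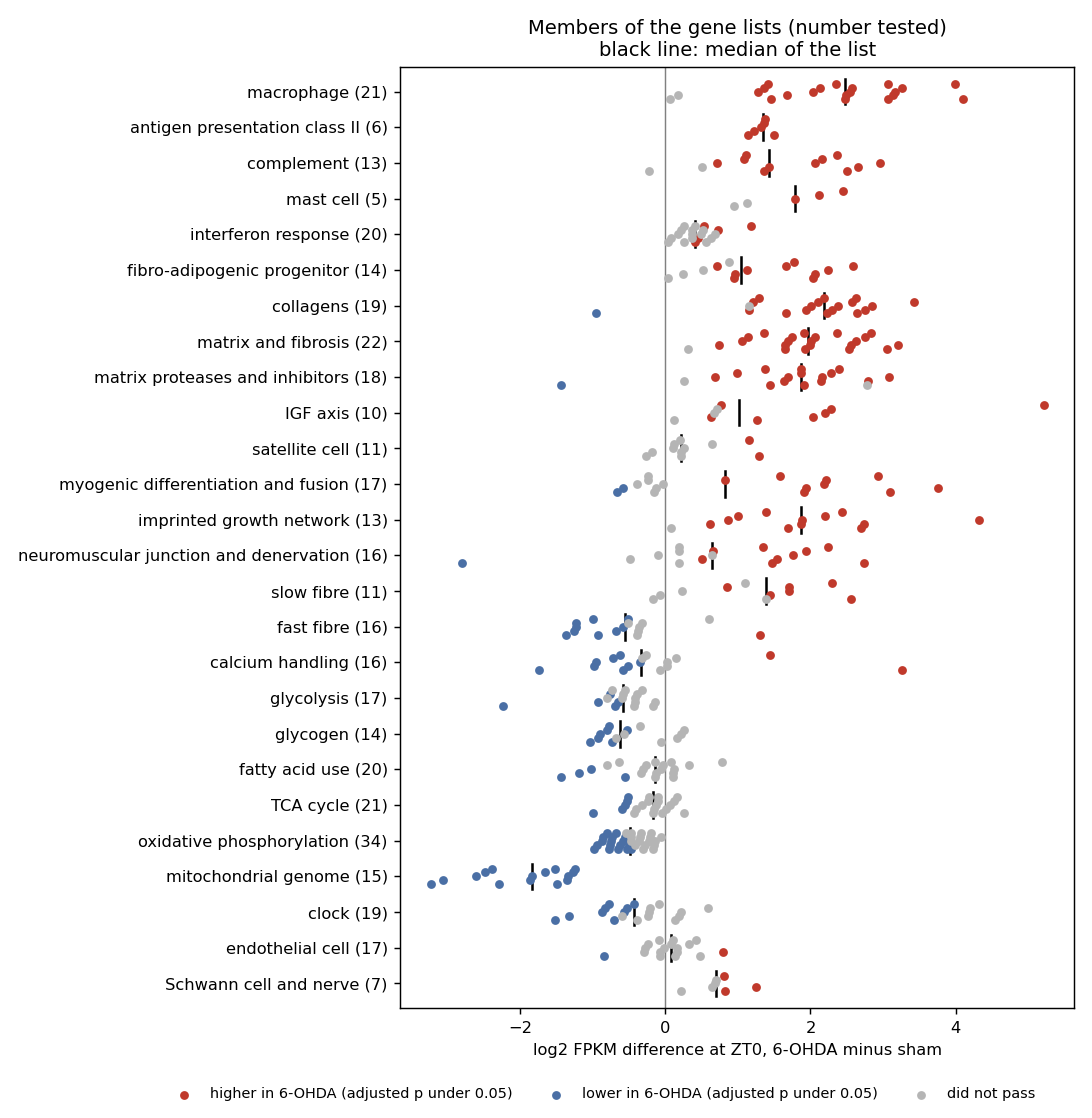
Log2 FPKM difference at ZT0, 6-OHDA minus sham, for each tested member of 26 gene lists (1 point per gene, the number tested in brackets, black line the median). The macrophage, matrix and imprinted lists, and the collagens other than Col24a1, lie to the right of 0, the mitochondrial genome lies wholly to the left, and the fast fibre, glycolysis and oxidative phosphorylation lists have medians to the left by less than 1.

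Macrophage genes had the highest median rise of the immune lists. Of 21 macrophage genes tested, 19 were higher in 6-OHDA and none lower, with a median log2 difference of 2.48. With a filter on a mean log2 FPKM of at least 1 instead, 12 were higher and none lower. Cd68, a lysosomal membrane protein of macrophages on chromosome 11, had 25.6, 10.9, 20.2 and 15.4 FPKM in the 6-OHDA libraries, against 1.61, 2.62, 1.69 and 2.04 FPKM in the sham libraries. Every 6-OHDA library lay above every sham library, library 2 being the lowest of its group, and the log2 difference was 3.13 (SE 0.25, adjusted p = 0.000958). Lyz2, the lysozyme of myeloid cells, had 317, 132, 347 and 211 FPKM in 6-OHDA muscle, against 14.8, 34.2, 27.3 and 26.4 FPKM in sham muscle. The order of the 6-OHDA libraries was nearly that of Cd68, again with library 2 lowest, and the log2 difference of Lyz2 was 3.26 (SE 0.33, adjusted p = 0.00102). Adgre1, which encodes F4/80, had 5.31, 2.11, 4.54 and 2.94 FPKM in 6-OHDA muscle and 0.232, 0.647, 0.399 and 0.464 FPKM in sham muscle (log2 difference 3.07).

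Several genes known from macrophages were among the named genes with large rises. Gpnmb, a glycoprotein of lipid-handling macrophages, had 21.4, 7.76, 20.5 and 14.6 FPKM in 6-OHDA muscle, against 0.372, 1.22, 1.16 and 1.41 FPKM in sham muscle (log2 difference 3.99, SE 0.44, adjusted p = 0.00102). Trem2, a lipid receptor, had 3.84, 1.82, 2.99 and 2.49 FPKM in 6-OHDA muscle, against 0.038, 0.2, 0.262 and 0.215 FPKM in sham muscle, a log2 difference of 4.10 (SE 0.53, adjusted p = 0.00134). Clec4d, a C-type lectin receptor on chromosome 6 (chr6:123262111-123275265, GRCm38), had 3.71, 1.51, 3.7 and 2.52 FPKM in 6-OHDA muscle, while the sham libraries were listed at 0, 0.0924, 0.0388 and 0.0995 FPKM. That gene rested on 86.2 to 205 recovered reads in each 6-OHDA library and on at most 3.59 in a sham library, so its log2 difference of 5.80 (SE 0.79, adjusted p = 0.00148) has an imprecise lower level. Atp6v0d2, a subunit of the vacuolar proton pump, differed by 4.91 (SE 0.41, adjusted p = 0.000958), and Ctss, a cathepsin of antigen-presenting cells, by 3.15 (SE 0.35, adjusted p = 0.00102). In the lysosome list to which both belong, 10 of 17 genes were higher and none lower (median 0.63).

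Within the macrophage list, 2 genes did not pass. Lyve1, a receptor of resident perivascular macrophages and lymphatic vessels, had 2.06, 1.24, 1.59 and 1.94 FPKM in 6-OHDA muscle and 1.05, 2.37, 1.45 and 1.8 FPKM in sham muscle, with full overlap (log2 difference 0.07, adjusted p = 0.859). Cd163, a haemoglobin scavenger receptor, did not pass either. Spp1, which encodes osteopontin, had 18.2, 5.01, 14.2 and 8.52 FPKM in 6-OHDA muscle, against 8.13, 1.12, 0.881 and 1.16 FPKM in sham muscle. Sham library 1 lay inside the range of the injected muscles, and the log2 difference was 2.54 (SE 0.67, adjusted p = 0.0167).

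Complement and antigen presentation rose with the macrophage genes. Of 13 complement genes tested, 11 were higher and none lower (median 1.43), and 8 were higher with the filter on a mean log2 FPKM of at least 1. C1qb, a chain of the recognition molecule C1q, had 65.6, 31.4, 67.4 and 38.9 FPKM in 6-OHDA muscle, against 3.89, 11.2, 9.19 and 8.67 FPKM in sham muscle (log2 difference 2.65, SE 0.35, adjusted p = 0.0014). C3ar1, the receptor for the C3a fragment, differed by 2.95 (SE 0.41, adjusted p = 0.00167). All 6 class II genes tested were higher, with a median of 1.34. Cd74, the invariant chain, had 134, 78.1, 129 and 72.8 FPKM in 6-OHDA muscle and 27.4, 55.9, 41 and 35.9 FPKM in sham muscle (log2 difference 1.36, SE 0.26, adjusted p = 0.00482), and sham library 2 was the highest of its group. Of 20 interferon response genes, 5 were higher and none lower (median 0.41), against 17.2% and 17.7% of all genes, and 10 were higher on own totals. On the authors' scale the count was 1 without 6-OHDA library 1 or sham library 3, 2 without 6-OHDA library 3 or sham library 1 or 4, and 3 without 6-OHDA library 4. Ifit1, an antiviral effector, had 4.34, 1.35, 1.44 and 2.13 FPKM in 6-OHDA muscle, against 1.56, 1.46, 1.72 and 1.63 FPKM in sham muscle, which overlap (log2 difference 0.37, adjusted p = 0.39). H2-D1, a class I heavy chain whose reads can be shared with its close relatives, passed at 0.73 (SE 0.16, adjusted p = 0.0089).

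Of 10 chemokines tested, 6 were higher and none lower (median 1.49). With the filter on a mean log2 FPKM of at least 1, 1 chemokine was higher. Ccl6, a monocyte chemokine of mice, had 7.89, 5.52, 12.7 and 8.73 FPKM in 6-OHDA muscle, against 0.996, 2.5, 1.5 and 1.73 FPKM in sham muscle (log2 difference 2.38, SE 0.30, adjusted p = 0.00122). Cx3cl1, the membrane-bound chemokine fractalkine, differed by 2.02 (SE 0.37, adjusted p = 0.00413). Among 9 cytokine genes, 3 were higher and none lower, and 1 was higher without 6-OHDA library 1, 6-OHDA library 3 or sham library 3. Il33, an alarmin made by stromal cells, differed by 1.05 (SE 0.28, adjusted p = 0.0177), and its call was lost without 6-OHDA library 3 (adjusted p = 0.0566).

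Genes of other blood-derived cells were at lower levels. Mast cell genes were higher in 3 of 5 cases and lower in none (median 1.78): Cma1, a chymase, had 1.59, 1.07, 2.35 and 2.43 FPKM in 6-OHDA muscle, against 0.394, 0.498, 0.627 and 0.536 FPKM in sham muscle (log2 difference 1.78, SE 0.29, adjusted p = 0.00264). Cpa3, a mast cell carboxypeptidase, differed by 2.44 (SE 0.60, adjusted p = 0.0129), a call lost without 6-OHDA library 3 (adjusted p = 0.0505). Cma1 and Cpa3 were under 1 FPKM in every sham library and so passed the filter through the injected muscles alone. With the filter on a mean log2 FPKM of at least 1, no mast cell gene was called higher. No T cell, NK cell or neutrophil gene of the lists reached the filter. The 2 T and NK cell markers in the table summed to 0.329 to 1.25 FPKM in 6-OHDA muscle and 0.305 to 0.429 FPKM in sham muscle, which overlap. All 4 T and NK cell list genes in the table summed to 2.47, 1.19, 3.20 and 1.54 FPKM in 6-OHDA muscle, against 0.614, 0.992, 0.818 and 0.783 FPKM in sham muscle, which do not overlap. The 2 neutrophil markers summed to 0.42 to 1.12 FPKM in 6-OHDA muscle and 0.0391 to 0.453 FPKM in sham muscle. Of 3 B and plasma cell genes tested, 1 was lower and none higher, while Cd79b, the B cell marker in the table, was listed at 0.275 to 0.669 FPKM in 6-OHDA muscle and 0.0986 to 0.29 FPKM in sham muscle, which overlap. The lower gene was Mzb1, a chaperone of plasma cells, with 1.28, 0.682, 0.75 and 0.787 FPKM in 6-OHDA muscle and 2.13, 1.64, 1.37 and 1.42 FPKM in sham muscle (log2 difference -0.92, SE 0.24, adjusted p = 0.0159), and it did not pass on own totals.

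The matrix genes rose together and by several-fold. Of 19 collagen genes tested, 17 were higher and 1 lower (median 2.19), and of 22 other matrix genes, 21 were higher and none lower (median 1.96). Col3a1, the type III collagen of early scar, had 503, 272, 358 and 244 FPKM in 6-OHDA muscle, against 28.8, 80.4, 38.5 and 50.5 FPKM in sham muscle, with a log2 difference of 2.84 (SE 0.32, adjusted p = 0.00104). Col1a1, the main chain of type I collagen, had 366, 185, 211 and 111 FPKM in 6-OHDA muscle, against 32, 55.7, 24.9 and 25 FPKM in sham muscle (log2 difference 2.62, SE 0.36, adjusted p = 0.00151). In both genes 6-OHDA library 1 was the highest and library 4 the lowest of the injected muscles, and sham library 2 the highest of its group. Col14a1, a fibril-associated collagen, had the largest difference among the collagens, 3.42 (SE 0.38, adjusted p = 0.00104). The collagen that was lower was Col24a1, a minor fibrillar chain, with 1.55, 2.05, 1.84 and 2.66 FPKM in 6-OHDA muscle and 2.75, 4.73, 6.12 and 2.74 FPKM in sham muscle (log2 difference -0.95, adjusted p = 0.0246). That call was lost on own totals and without any of 4 libraries (6-OHDA 1 and 3, sham 2 and 3, adjusted p up to 0.0688).

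Postn, the matricellular protein periostin, had 117, 38.4, 64.1 and 44.3 FPKM in 6-OHDA muscle, against 7.84, 9.92, 4.68 and 7.41 FPKM in sham muscle (log2 difference 3.05, SE 0.34, adjusted p = 0.00104). Fn1, fibronectin, differed by 2.83 (SE 0.33, adjusted p = 0.00111) and Cthrc1, a secreted protein of active fibroblasts, by 3.20 (SE 0.31, adjusted p = 0.00102). Tnc, tenascin C, spread more widely, with 12.8, 3.13, 6.2 and 2.05 FPKM in 6-OHDA muscle and 1.71, 1.46, 0.76 and 0.855 FPKM in sham muscle (log2 difference 2.06, SE 0.51, adjusted p = 0.0135). Matrix proteases and their inhibitors were higher in 15 of 18 genes and lower in 1 (median 1.87). With the filter on a mean log2 FPKM of at least 1, 10 were higher and 1 lower. Mmp2, gelatinase A, had 124, 67.5, 104 and 67.9 FPKM in 6-OHDA muscle, against 14.2, 26.3, 17.5 and 22.4 FPKM in sham muscle (log2 difference 2.16, SE 0.25, adjusted p = 0.00111), and Mmp19 differed by 2.79 (SE 0.32, adjusted p = 0.00111). Mmp13, a collagenase, was scattered, with 16.8, 0.199, 9.71 and 1.11 FPKM in 6-OHDA muscle and 6.49, 0.231, 0.174 and 0.0497 FPKM in sham muscle, and did not pass (adjusted p = 0.202). The exception in direction was Timp4, an inhibitor, whose groups overlap (log2 difference -1.44, adjusted p = 0.0487) and whose call did not hold on own totals (adjusted p = 0.088).

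Genes of fibro-adipogenic progenitors, stromal cells known to make matrix, were higher in 10 of 14 cases and lower in none (median 1.04). Which cells the matrix transcripts above came from was not tested. Lum, the proteoglycan lumican, had 117, 64.6, 95.8 and 85.5 FPKM in 6-OHDA muscle, against 25, 28.4, 27.1 and 23.5 FPKM in sham muscle (log2 difference 1.78, SE 0.17, adjusted p = 0.00101). Pi16, a marker of adventitial fibroblasts, had 15.8, 13.2, 21.8 and 18.4 FPKM in 6-OHDA muscle, against 2.38, 5.49, 3.8 and 5.9 FPKM in sham muscle (log2 difference 2.03, SE 0.27, adjusted p = 0.00147). Pdgfra, the receptor that defines these cells, moved less, with 4.25, 2.7, 3.97 and 3.55 FPKM in 6-OHDA muscle and 1.01, 2.53, 1.85 and 2.44 FPKM in sham muscle (log2 difference 0.95, SE 0.28, adjusted p = 0.0268). Its groups do not overlap but nearly touch, and the call was lost without 6-OHDA library 1, 6-OHDA library 3 or sham library 3 (adjusted p up to 0.0734). Sfrp2, a secreted Wnt modulator, was among the 10 largest rises, with 6.86, 3.26, 7.33 and 11.6 FPKM in 6-OHDA muscle and 0.415, 0.42, 0.361 and 0.123 FPKM in sham muscle (log2 difference 4.42, SE 0.45, adjusted p = 0.00102), and here 6-OHDA library 4 was the highest.

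**Figure D2:**
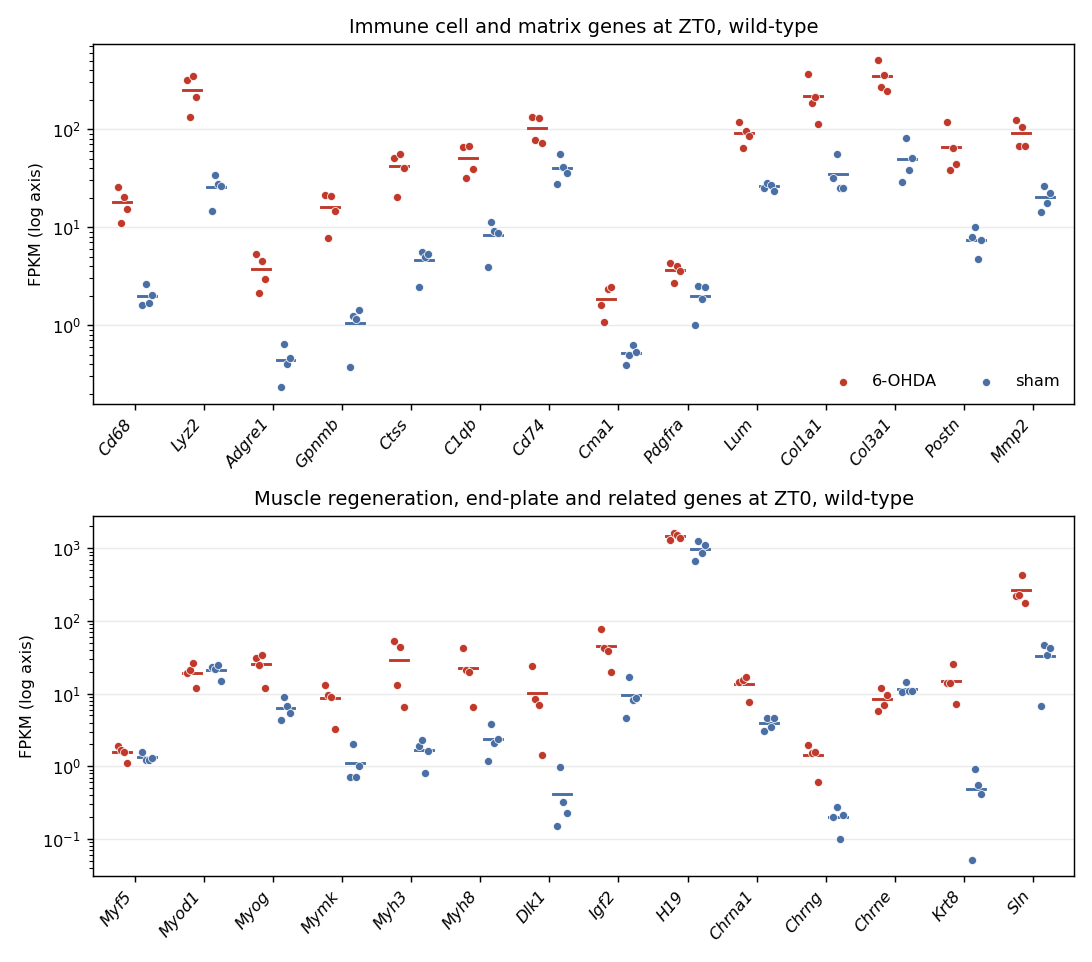
FPKM on a log axis in each of the 4 6-OHDA and 4 sham libraries at ZT0 (points) with the group mean (line). The immune and matrix genes above do not overlap between groups, while in the lower panel Myf5, Myod1 and Chrne overlap and Myog, Mymk, Myh3, Myh8, Dlk1, Chrna1, Chrng, Krt8 and Sln lie apart.

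Growth factor genes of the injured muscle followed. Of 10 genes of the IGF axis, 7 were higher and none lower (median 1.02). Igf1, a growth factor made by macrophages and fibres, had 14.7, 7.43, 11.6 and 11.2 FPKM in 6-OHDA muscle, against 2.04, 4.19, 2.31 and 2.55 FPKM in sham muscle (log2 difference 2.03, SE 0.25, adjusted p = 0.00122). Igf2, a foetal growth factor, had 77, 41.9, 39.1 and 20 FPKM in 6-OHDA muscle, against 4.64, 16.8, 8.18 and 8.78 FPKM in sham muscle (log2 difference 2.20, SE 0.44, adjusted p = 0.00549). Igf2 belongs to the imprinted growth network, a set of genes expressed from a single parental allele and switched down after birth. Of 13 genes of that network tested, 12 were higher and none lower (median 1.87). Dlk1, a Notch-related membrane protein (chr12:109452823-109463336), showed the widest spread, with 23.9, 8.35, 7.05 and 1.41 FPKM in 6-OHDA muscle and 0.15, 0.989, 0.321 and 0.227 FPKM in sham muscle. All injected muscles lay above sham, 6-OHDA library 4 only just, and the log2 difference was 4.32 (SE 0.80, adjusted p = 0.00414). Mest differed by 2.73 (SE 0.40, adjusted p = 0.00189) and Plagl1, a zinc finger factor, by 2.69 (SE 0.47, adjusted p = 0.00331). H19, a long non-coding RNA, was already abundant and changed least of those that passed, with 1306, 1642, 1519 and 1379 FPKM in 6-OHDA muscle and 678, 1264, 855 and 1123 FPKM in sham muscle (log2 difference 0.61, adjusted p = 0.0447). Its call was lost without any of 6 libraries (6-OHDA 1, 2 and 3, sham 1, 3 and 4, adjusted p up to 0.114).

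The named genes also hold Mir453, a microRNA gene on the chromosome of Dlk1, at chr12:109735619-109735700. It had 3.54, 3.77, 3.15 and 0.965 FPKM in 6-OHDA muscle and was listed at 0 in all 4 sham libraries (adjusted p = 0.00192). The size of its difference is set by the value added to FPKM before the logarithm, so neither a fold nor a rank is given, and it passed the filter through the injected muscles alone. With a gene body of 82 bases, those values rest on 2 to 11 recovered reads per library, counted over the gene and not for the mature form. Its mature form, from RefSeq on GRCm38.p6 (plus strand, chr12:109735669-109735692), is shown with the seed, bases 2 to 8, in capitals, because at ZT0 reads of this gene were present in the injected muscles alone:
mmu-miR-453: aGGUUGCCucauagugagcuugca

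Of 11 satellite cell genes tested, 2 were higher and none lower (median 0.22), a share near the 17.2% of all genes, and 5 were higher on own totals. In levels, the 4 satellite cell markers summed to 8.62 to 13.2 FPKM in 6-OHDA muscle and 11.0 to 14.8 FPKM in sham muscle. Myf5, a determination factor, had 1.88, 1.7, 1.57 and 1.1 FPKM in 6-OHDA muscle and 1.58, 1.22, 1.22 and 1.32 FPKM in sham muscle, which overlap (log2 difference 0.20, adjusted p = 0.429). Myod1, the other determination factor, had 18.9, 20.9, 26.1 and 11.9 FPKM in 6-OHDA muscle and 23.5, 21.8, 24.7 and 15 FPKM in sham muscle (log2 difference -0.16, adjusted p = 0.639). Pax7, the stem cell factor itself, stayed under the filter at 0.533 to 0.901 FPKM in 6-OHDA muscle and 0.722 to 1.02 FPKM in sham muscle.

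Of 17 differentiation and fusion genes, 9 were higher and 2 lower (median 0.83). Myog, the factor that starts terminal differentiation, had 30.6, 25, 34.2 and 11.8 FPKM in 6-OHDA muscle, against 4.37, 8.89, 6.8 and 5.45 FPKM in sham muscle (log2 difference 1.93, SE 0.33, adjusted p = 0.00307). Mymk, the membrane protein that drives fusion, had 13.2, 9.51, 8.9 and 3.22 FPKM in 6-OHDA muscle, against 0.716, 2.01, 0.72 and 0.997 FPKM in sham muscle (log2 difference 2.93, SE 0.45, adjusted p = 0.00206). In both, 6-OHDA library 4 was the lowest injected muscle. Myh3, embryonic myosin, had 52.3, 13.2, 44.3 and 6.48 FPKM in 6-OHDA muscle, against 1.88, 2.3, 0.804 and 1.65 FPKM in sham muscle (log2 difference 3.76, SE 0.62, adjusted p = 0.00276). Myh8, perinatal myosin, had 42.9, 21.4, 20.1 and 6.55 FPKM in 6-OHDA muscle, against 1.18, 3.85, 2.07 and 2.4 FPKM in sham muscle (log2 difference 3.09, SE 0.52, adjusted p = 0.00297). Libraries 2 and 4 of the injected group were the low ones for Myh3, and library 4 alone for Myh8. Among the lower members was Ttn, the giant sarcomere protein titin (log2 difference -0.58, adjusted p = 0.0375), which missed the threshold on own totals (adjusted p = 0.32). Its call was also lost without any of 6 libraries (6-OHDA 1, 2 and 3, sham 1, 3 and 4, adjusted p up to 0.099). Of 22 cell division genes in the table, 11 reached the filter and were tested. Of those tested, 7 were higher and none lower (median 1.31), against 17.2% and 17.7% of all genes. Among the higher were Ccnd1, cyclin D1 (log2 difference 1.52, SE 0.31, adjusted p = 0.00614), and Rrm2, a subunit of ribonucleotide reductase (log2 difference 1.54, SE 0.29, adjusted p = 0.00434).

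Genes of the foetal acetylcholine receptor rose. In the list of neuromuscular junction and denervation genes, 9 of 16 were higher and 1 lower (median 0.65). Chrng, the foetal gamma subunit, had 1.98, 1.52, 1.59 and 0.599 FPKM in 6-OHDA muscle, against 0.203, 0.277, 0.0996 and 0.213 FPKM in sham muscle (log2 difference 2.74, SE 0.47, adjusted p = 0.00324). Chrne, the adult epsilon subunit that replaces it, had 5.72, 11.9, 7.04 and 9.57 FPKM in 6-OHDA muscle and 10.5, 14.3, 10.9 and 10.7 FPKM in sham muscle, which overlap (log2 difference -0.49, SE 0.22, adjusted p = 0.103). Chrna1, the ligand-binding alpha subunit, had 14.5, 15.6, 16.7 and 7.71 FPKM in 6-OHDA muscle, against 3.04, 4.57, 3.43 and 4.69 FPKM in sham muscle (log2 difference 1.76, SE 0.25, adjusted p = 0.00171). Chrnd, the delta subunit, differed by 1.54 (SE 0.27, adjusted p = 0.00354). Musk, the kinase that clusters the receptors, differed by 1.35 (SE 0.19, adjusted p = 0.00176), and Runx1, a transcription factor of denervated fibres, by 2.24 (SE 0.31, adjusted p = 0.00151). The member that was lower, Fgfbp1, a carrier of fibroblast growth factors, was among the 10 largest falls, with 0.0897, 0.347, 0.186 and 1.12 FPKM in 6-OHDA muscle and 2.29, 1.22, 3.21 and 2.04 FPKM in sham muscle (log2 difference -2.80, SE 0.65, adjusted p = 0.0105). 6-OHDA library 4 came close to sham library 2 there.

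Myogenic factors such as Myog bind the E-box, CANNTG, a palindrome read on both strands. In windows from 250 bases before to 50 after the gene start, all 5 promoters found among the raised junction genes held an E-box and 3 (60%) held its CAGCTG form, which is also counted as an E-box. Of 27025 gene promoters in the table, 72.1% held an E-box and 16.1% held CAGCTG, and of 8740 promoters of tested genes 62.6% and 15.2% did. Of 7 promoters of raised differentiation and fusion genes, 5 (71.4%) held an E-box and 1 (14.3%) held CAGCTG. Over all junction genes with a promoter, 11 of 12 (91.7%) held an E-box, the lower gene included, and 4 (33.3%) held CAGCTG. Over all 10 promoters of differentiation and fusion genes, 8 (80%) and 2 (20%) did. The E-box therefore does not set the raised genes of either list apart. The windows of the myogenic regulator and of the foetal and alpha receptor genes are shown because their transcripts rose together. They are RefSeq sequences on GRCm38.p6, with every E-box in capitals, for Myog at chr1:134289754-134290053 (plus strand), Chrng at chr1:87205561-87205860 (plus strand) and Chrna1 at chr2:73580289-73580588 (minus strand):
Myog: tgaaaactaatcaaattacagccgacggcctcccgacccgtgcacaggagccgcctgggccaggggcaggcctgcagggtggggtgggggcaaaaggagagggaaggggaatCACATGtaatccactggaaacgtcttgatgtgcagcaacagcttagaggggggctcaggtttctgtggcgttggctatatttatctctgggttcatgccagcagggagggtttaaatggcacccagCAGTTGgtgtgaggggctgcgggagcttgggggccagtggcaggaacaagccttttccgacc
Chrng: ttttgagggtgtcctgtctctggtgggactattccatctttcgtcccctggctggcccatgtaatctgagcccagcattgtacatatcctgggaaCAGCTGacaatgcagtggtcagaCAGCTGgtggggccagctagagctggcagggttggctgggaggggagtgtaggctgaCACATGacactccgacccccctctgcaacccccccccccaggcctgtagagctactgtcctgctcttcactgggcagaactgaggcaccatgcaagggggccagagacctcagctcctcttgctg
Chrna1: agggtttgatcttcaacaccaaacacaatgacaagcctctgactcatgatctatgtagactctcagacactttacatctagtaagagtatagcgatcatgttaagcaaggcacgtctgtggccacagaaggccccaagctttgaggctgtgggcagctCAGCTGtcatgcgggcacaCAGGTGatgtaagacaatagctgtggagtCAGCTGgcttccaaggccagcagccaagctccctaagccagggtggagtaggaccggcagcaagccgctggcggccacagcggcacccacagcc
Myog held 2 E-boxes, while Chrng and Chrna1 held 3 each, 2 of them CAGCTG in either gene. A match is a description of the letters and not of binding.

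A pair of simple-epithelium keratins, Krt8 and Krt18, was among the 10 largest rises. Krt8 (chr15:101996698-102004482) had 13.8, 13.8, 25.7 and 7.14 FPKM in 6-OHDA muscle, against 0.0521, 0.912, 0.546 and 0.417 FPKM in sham muscle (log2 difference 5.32, SE 0.73, adjusted p = 0.00155). Its partner Krt18, which pairs with it in a filament, had 25.9, 30.9, 55 and 11.1 FPKM in 6-OHDA muscle, against 0.302, 2.7, 2.74 and 1.9 FPKM in sham muscle (log2 difference 4.19, SE 0.70, adjusted p = 0.00285). Both were highest in 6-OHDA library 3 and lowest, within their groups, in 6-OHDA library 4 and sham library 1. The keratinocyte marker in the table, Krt10, ran the other way, at 0.604 to 0.726 FPKM in 6-OHDA muscle and 0.741 to 1.26 FPKM in sham muscle. Krt5 and Krt14 were not among the genes of the table. The 1 gene tested in the keratinocyte list, a gene other than Krt10, leaned higher in 6-OHDA muscle (log2 difference 0.86). That gene did not pass on the authors' scale but was higher on own totals. Whether epithelial cells were a source of Krt8 and Krt18 was not tested. Ripply1, a transcriptional repressor of somites, differed by 4.11 (SE 0.63, adjusted p = 0.00205), and Glipr1 by 4.06 (SE 0.42, adjusted p = 0.00102).

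In the list of mechanical stress and fibre repair genes, 5 of 16 were higher and none lower (median 0.76). Ankrd1, a titin-bound sensor of stretch, had 71.3, 59.5, 160 and 77.4 FPKM in 6-OHDA muscle, against 33.4, 24.4, 19.1 and 22.8 FPKM in sham muscle (log2 difference 1.80, SE 0.29, adjusted p = 0.00246). Csrp3, a Z-disc protein, had 237, 236, 343 and 46.7 FPKM in 6-OHDA muscle and 90.5, 96.4, 21.6 and 80.2 FPKM in sham muscle, and did not pass (adjusted p = 0.102), 6-OHDA library 4 lying inside the sham range. Anxa1, annexin A1, differed by 1.70 (SE 0.24, adjusted p = 0.00164). The count for this list was 3 without 6-OHDA library 1, 2 or 3 or sham library 2, and 11 without 6-OHDA library 4.

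Where they passed, most fast fibre genes were lower and the slow fibre genes higher. Of 16 fast fibre genes, 9 were lower and 1, Myh2, higher (median -0.55). Of 11 slow fibre genes, 6 were higher and none lower (median 1.39), or 3 without 6-OHDA library 1. On own totals 6 fast fibre genes were lower and 2 higher (median -0.14), while 8 slow fibre genes were higher and none lower (median 1.80). Myh4, the myosin of the fastest fibres, had 1907, 3888, 2533 and 4382 FPKM in 6-OHDA muscle, against 8139, 7470, 6433 and 6454 FPKM in sham muscle (log2 difference -1.23, SE 0.27, adjusted p = 0.00861). Myh1, the myosin of type 2X fibres, had 2817, 2585, 2400 and 1752 FPKM in 6-OHDA muscle and 2251, 1420, 1380 and 1285 FPKM in sham muscle, which overlap through sham library 1 (log2 difference 0.61, adjusted p = 0.0622). Myh2, the myosin of type 2A fibres, had 763, 465, 566 and 300 FPKM in 6-OHDA muscle, against 274, 231, 91.3 and 284 FPKM in sham muscle (log2 difference 1.30, SE 0.39, adjusted p = 0.0274). Myh7, slow myosin, had 16.8, 6.22, 12.3 and 10.3 FPKM in 6-OHDA muscle and 1.75, 7.29, 0.211 and 3.85 FPKM in sham muscle, which overlap through sham library 2 (log2 difference 2.56, SE 0.89, adjusted p = 0.0488). By length-corrected level, Myh4 remained the most abundant of these 4 myosins in 6-OHDA libraries 2, 3 and 4 and in all sham libraries, while Myh1 exceeded it in 6-OHDA library 1. The call of Myh2 was lost without 6-OHDA library 1, 2 or 3 (adjusted p up to 0.0735), and that of Myh7 without any 6-OHDA library or without sham library 1 or 4 (adjusted p up to 0.115).

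Of the other fibre-type genes described here, the fast ones were lower and the slow ones higher. Actn3, the alpha-actinin of fast fibres, had 918, 1438, 1199 and 1932 FPKM in 6-OHDA muscle, against 3357, 3010, 3011 and 3090 FPKM in sham muscle (log2 difference -1.24, SE 0.22, adjusted p = 0.0037). Pvalb, the calcium buffer parvalbumin, differed by -1.26 (SE 0.27, adjusted p = 0.00809), and Mylk2, the skeletal myosin light chain kinase, by -1.37 (SE 0.23, adjusted p = 0.00294). Tnni1, slow troponin I, had 16.3, 7.61, 15.3 and 7.86 FPKM in 6-OHDA muscle, against 1.72, 4.46, 0.965 and 3.34 FPKM in sham muscle (log2 difference 2.30, SE 0.46, adjusted p = 0.00551). Atp2a2, the slow calcium pump, differed by 1.71 (SE 0.28, adjusted p = 0.00275). In the calcium handling list, 8 of 16 genes were lower and 2 higher, and its median of -0.34 turned to 0.07 on own totals, where 3 were lower and 4 higher. The lower count was 5 without 6-OHDA library 1 or 3 or sham library 1. The 2 that were higher were Casq2, slow calsequestrin (log2 difference 1.45, SE 0.21, adjusted p = 0.00172), and Sln, sarcolipin, a brake on the calcium pump, with 221, 230, 430 and 177 FPKM in 6-OHDA muscle and 6.67, 46.4, 34.2 and 42.8 FPKM in sham muscle (log2 difference 3.27, SE 0.56, adjusted p = 0.00324). Mrln, myoregulin, the brake used in fast fibres, went the other way, with 2.97, 5, 6.14 and 7.64 FPKM in 6-OHDA muscle and 16, 15.3, 21.5 and 16.6 FPKM in sham muscle (log2 difference -1.74, SE 0.26, adjusted p = 0.00189).

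**Figure D3:**
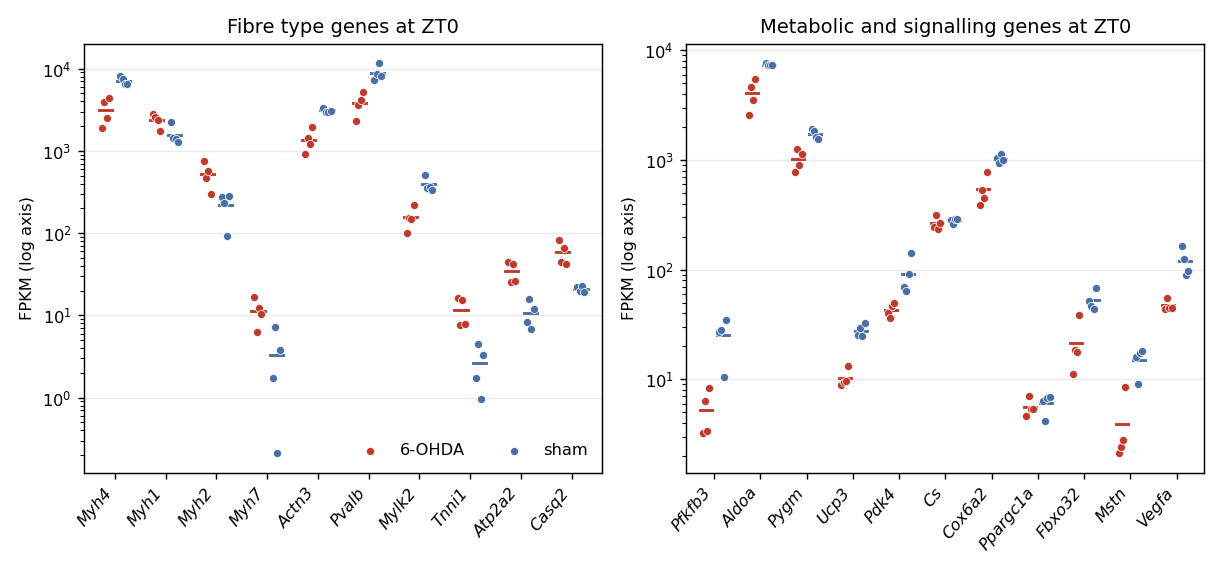
FPKM on a log axis in each 6-OHDA and sham library at ZT0 (points, line at the mean). Myh4, Actn3, Pvalb and Mylk2 lie lower and Tnni1, Atp2a2 and Casq2 higher in 6-OHDA without overlap, and among the metabolic and signalling genes Cs and Ppargc1a overlap.

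Metabolic genes encoded in the nucleus were lower where they passed on the authors' scale. Of 17 glycolysis genes, 5 were lower and none higher (median -0.58), against 2 lower on own totals, and of 14 glycogen genes, 7 were lower and none higher (median -0.62), but on own totals 2 of the glycogen genes were lower and 3 higher. Pfkfb3, which makes the activator of phosphofructokinase, had 3.24, 6.32, 3.37 and 8.3 FPKM in 6-OHDA muscle, against 27.2, 28.5, 10.5 and 35 FPKM in sham muscle (log2 difference -2.24, SE 0.41, adjusted p = 0.00398). Aldoa, muscle aldolase, had 2598, 4648, 3526 and 5526 FPKM in 6-OHDA muscle, against 7600, 7308, 7339 and 7398 FPKM in sham muscle (log2 difference -0.92, adjusted p = 0.0174), a call lost without 6-OHDA library 3 (adjusted p = 0.0571). Pygm, muscle glycogen phosphorylase, differed by -0.80 (SE 0.18, adjusted p = 0.00996). The glycolysis count was 2 without 6-OHDA library 3, 3 without sham library 1 or 3 and 10 without 6-OHDA library 4. The glycogen count was 2 without 6-OHDA library 3 or sham library 3 or 4, 3 without 6-OHDA library 1 or sham library 1, and 4 without 6-OHDA library 2.

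Of 34 nuclear genes of oxidative phosphorylation, 17 were lower and none higher (median -0.49), against 4 lower and 1 higher on own totals. The count was 11 without 6-OHDA library 1, 6 without 6-OHDA library 3 and 5 without sham library 3 or sham library 4. Cox6a2, a muscle subunit of cytochrome oxidase, had 393, 535, 456 and 783 FPKM in 6-OHDA muscle, against 1041, 948, 1126 and 1009 FPKM in sham muscle (log2 difference -0.98, SE 0.21, adjusted p = 0.00715). The TCA cycle list had 5 of 21 genes lower and none higher, but its median of -0.17 turned to 0.25 on own totals, where 7 were higher and none lower. Its count was 1 without 6-OHDA library 1 or 3 or without sham library 1, 3 or 4, and 3 without 6-OHDA library 2. Cs, citrate synthase, had 243, 312, 236 and 268 FPKM in 6-OHDA muscle and 287, 261, 293 and 288 FPKM in sham muscle (log2 difference -0.10, adjusted p = 0.569, and 0.31 on own totals with adjusted p = 0.031). In the fatty acid list 4 of 20 genes were lower and none higher, and its median of -0.14 likewise turned to 0.27, with 6 higher and 2 lower. Over all genes tested, 17.7% were lower. Ucp3, a mitochondrial carrier of fast muscle, had 8.93, 9.42, 9.75 and 13.3 FPKM in 6-OHDA muscle, against 25.3, 29.2, 24.6 and 32.4 FPKM in sham muscle (log2 difference -1.44, SE 0.15, adjusted p = 0.00102), and Pdk4, the kinase that shuts off pyruvate oxidation, differed by -1.02 (SE 0.23, adjusted p = 0.00976). No gene of the 12 in the mitochondrial biogenesis list passed by limma in either direction (median 0.04), while 6 were higher on own totals. Ppargc1a, its best-known activator, had 4.6, 7.1, 5.33 and 5.42 FPKM in 6-OHDA muscle and 6.32, 4.22, 6.76 and 6.94 FPKM in sham muscle (log2 difference -0.10, adjusted p = 0.696).

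Transcripts of the mitochondrial genome fell together. All 15 genes of that list, the 13 protein-coding and the 2 ribosomal RNA genes, were lower (median -1.84, and -1.42 on own totals, where 15 were lower too). mt-Co3, a core subunit of cytochrome oxidase, had 126, 470, 396 and 476 FPKM in 6-OHDA muscle, against 3744, 2254, 5366 and 1894 FPKM in sham muscle (log2 difference -3.23, SE 0.46, adjusted p = 0.00176). mt-Nd1, a subunit of complex I, had 5881, 9641, 7204 and 14060 FPKM in 6-OHDA muscle, against 28030, 18963, 31131 and 23187 FPKM in sham muscle (log2 difference -1.52, SE 0.31, adjusted p = 0.00633). The most abundant, mt-Co1, had 17066, 26296, 20402 and 36381 FPKM in 6-OHDA muscle, against 59663, 47122, 66915 and 55076 FPKM in sham muscle (log2 difference -1.24, SE 0.30, adjusted p = 0.0128), a call lost without 6-OHDA library 3 (adjusted p = 0.0522). In all 3 genes 6-OHDA library 1 was the lowest and library 4 the highest of the injected muscles. mt-Nd4l and mt-Atp6 were among the 10 largest falls, at -3.06 (SE 0.66, adjusted p = 0.00752) and -2.60 (SE 0.46, adjusted p = 0.00355). Mitochondrial genes can have nuclear copies that share their reads. How far this bears on single genes such as mt-Co3 and mt-Atp6 was not tested, so the sizes of their falls are uncertain. The ribosomal RNA mt-Rnr1 had 513, 831, 678 and 1351 FPKM in 6-OHDA muscle, against 3316, 2336, 3396 and 2404 FPKM in sham muscle (log2 difference -1.84, SE 0.29, adjusted p = 0.00215).

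The 35 genes of the mitochondrial genome in the table made up 18%, 23.1%, 19% and 28.6% of summed FPKM in the 6-OHDA libraries, against 39.3%, 32.8%, 40.8% and 35.7% in the sham libraries. The mean share was 22.2 ± 4.83% in 6-OHDA muscle and 37.1 ± 3.60% in sham muscle (SD, n = 4 each), a difference of -14.95 percentage points (exact two-sided permutation p = 0.0286, the smallest that 4 against 4 allows). Among mitochondrial transfer RNA genes, 13 of 17 were lower and none higher. mt-Tq, mt-Tm, mt-Ts2 and mt-Tl2 were among the 10 largest falls, and mt-Tq had 0.817, 0.791, 0.455 and 2.79 FPKM in 6-OHDA muscle, against 21.2, 9.85, 8.03 and 7.49 FPKM in sham muscle (log2 difference -3.46, SE 0.51, adjusted p = 0.00192). For mt-Tq this rested on 1 to 5 recovered reads per 6-OHDA library and 11 to 32 per sham library.

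**Figure D4:**
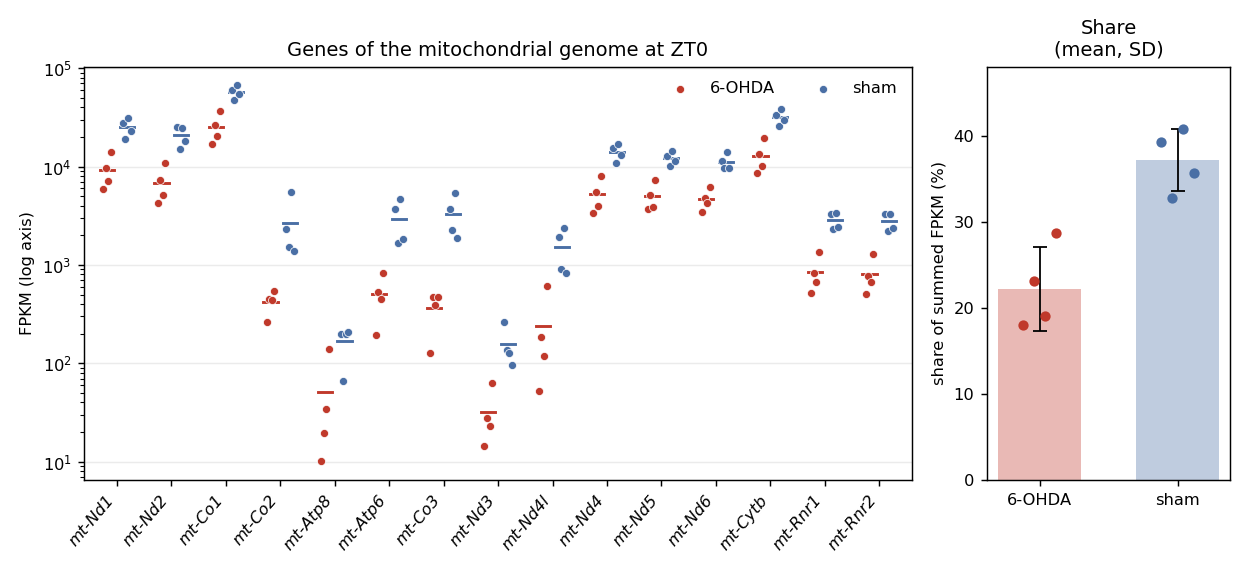
Left, FPKM on a log axis of the 13 protein-coding and 2 ribosomal RNA genes of the mitochondrial genome in each 6-OHDA and sham library (points, line at the mean). Right, the share of summed FPKM from all 35 mitochondrial genes (bars, mean with SD), 18% to 28.6% in 6-OHDA and 32.8% to 40.8% in sham.

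Genes that set fibre size moved both ways. Mstn, the growth inhibitor myostatin, had 2.12, 2.4, 2.81 and 8.48 FPKM in 6-OHDA muscle, against 16.1, 9.13, 17.2 and 18.1 FPKM in sham muscle (log2 difference -2.14, SE 0.41, adjusted p = 0.0047). Its antagonist Fst, follistatin, had 7.4, 5.78, 8.09 and 4.6 FPKM in 6-OHDA muscle, against 1.65, 1.94, 1.62 and 1.61 FPKM in sham muscle (log2 difference 1.89, SE 0.18, adjusted p = 0.000988). 6-OHDA library 4 was nearest to the sham libraries for both. Tgfb1, the main fibrogenic cytokine, differed by 1.35 (SE 0.27, adjusted p = 0.00584), with 6-OHDA library 4 at 5.27 FPKM and sham library 2 at 5.37 FPKM. In the TGF-beta and activin list that holds all 3, 6 of 15 genes were higher and 1 lower. In the atrophy list, 4 of 17 genes were higher and 7 lower, and the median of -0.22 turned to 0.19 on own totals, where 8 were higher and 3 lower. Fbxo32, the ubiquitin ligase atrogin-1, had 11.1, 18.5, 17.9 and 38.6 FPKM in 6-OHDA muscle, against 52.3, 46.9, 43.9 and 68.2 FPKM in sham muscle (log2 difference -1.42, SE 0.32, adjusted p = 0.00914). Trim63, the ligase MuRF1, differed by -0.53 (adjusted p = 0.0213), a call lost on own totals and without 6-OHDA library 2 or sham library 1, 3 or 4 (adjusted p up to 0.0573). Against those, Eda2r, a receptor of the TNF family, had 12.4, 9.61, 14.3 and 6.57 FPKM in 6-OHDA muscle and 3.64, 3.32, 2.47 and 3.04 FPKM in sham muscle (log2 difference 1.73, SE 0.23, adjusted p = 0.0014). Fbxo30, a ligase of denervated muscle, differed by 0.54 (SE 0.13, adjusted p = 0.0126).

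Genes of stress pathways passed in both directions on the authors' scale, on which 17.2% of all genes were higher and 17.7% lower. Of 14 Nrf2 targets, 3 were higher (21.4%) and 2 lower (14.3%), near the shares of all genes. Their median of -0.12 turned to 0.29 on own totals, where 6 were higher and 1 lower. Hmox1, haem oxygenase, had 7.89, 5.53, 8.03 and 7.72 FPKM in 6-OHDA muscle, against 1.92, 3.43, 2.09 and 2.5 FPKM in sham muscle (log2 difference 1.57, SE 0.19, adjusted p = 0.00121), whereas Nqo1, a quinone reductase, had 2.35, 5.01, 3.27 and 7.05 FPKM in 6-OHDA muscle and 12.6, 8.79, 16.8 and 11.1 FPKM in sham muscle (log2 difference -1.56, SE 0.32, adjusted p = 0.00634). Of 13 p53 targets, 3 were higher (23.1%) and 1 lower (7.69%), with 5 higher without sham library 2. On own totals 9 were higher and none lower. Cdkn1a, the cell cycle inhibitor p21, differed by 1.53 (SE 0.30, adjusted p = 0.00518), while the largest difference in that list was 3.63. Of 14 ER stress and ATF4 genes, 5 were higher and 3 lower, with 3 higher without 6-OHDA library 1 or 3 or sham library 1, and 8 higher and 1 lower on own totals. Chac1, which degrades glutathione, differed by -1.96 (SE 0.36, adjusted p = 0.00408) and Psat1, of serine synthesis, by 1.78 (SE 0.38, adjusted p = 0.00754), while Atf4 itself differed by -0.48 (SE 0.12, adjusted p = 0.0132) and missed the threshold on own totals (adjusted p = 0.53). Of 13 hypoxia and angiogenesis genes, 5 were higher and 4 lower, against 6 higher and 1 lower on own totals. Vegfa, the vessel growth factor, had 43.5, 55.3, 45 and 45.1 FPKM in 6-OHDA muscle, against 165, 126, 88.7 and 97.4 FPKM in sham muscle (log2 difference -1.30, SE 0.19, adjusted p = 0.00188), and Apln, an endothelial peptide, differed by 1.53 (SE 0.22, adjusted p = 0.00183).

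Of 12 genes in the sympathetic neurone list, 6 were in the table and 2 were tested. Whether their transcripts in whole muscle follow the state of the nerve endings was not tested. Dbh and Slc6a2, which encode the enzyme and the transporter of noradrenaline, were not among the genes of the table. Th, tyrosine hydroxylase, which starts catecholamine synthesis, stayed under the filter and was not tested, but was listed higher in 6-OHDA muscle, at 0.785, 0.748, 1.01 and 0.368 FPKM, than in sham muscle, at 0.0398, 0.296, 0.0658 and 0.131 FPKM. Its groups do not overlap, on 22 to 74 recovered reads per 6-OHDA library and 2 to 17 per sham library. Slc18a2, the vesicular monoamine transporter, leaned the other way, at 0.458 to 0.686 FPKM in 6-OHDA muscle and 0.649 to 1.1 FPKM in sham muscle. These ranges overlap, and Slc18a2 was not tested. Chga, a granule protein, was at 0.641 to 1.39 FPKM in 6-OHDA muscle and 0 to 0.22 FPKM in sham muscle, and Gap43, a protein of growing axons, at 0.403 to 1.03 FPKM in 6-OHDA muscle and 0.034 to 0.135 FPKM in sham muscle, neither of them tested.

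Nerve-related genes that were tested moved both ways. Gdnf, a survival factor for motor and sympathetic neurones, had 1.17, 0.944, 1.63 and 0.406 FPKM in 6-OHDA muscle, against 0.349, 0.223, 0.428 and 0.366 FPKM in sham muscle (log2 difference 1.45, SE 0.45, adjusted p = 0.0317). Library 4 of the injected group lay inside the sham range, and the call was lost without any of 6 libraries (6-OHDA 1, 2 and 3, sham 1, 2 and 4, adjusted p up to 0.1). Ntf3, neurotrophin 3, had 0.895, 1.1, 0.952 and 1.22 FPKM in 6-OHDA muscle and 1.81, 2.08, 1.82 and 1.55 FPKM in sham muscle (log2 difference -0.80, SE 0.16, adjusted p = 0.00633), and missed the threshold on own totals (adjusted p = 0.087). Of 7 Schwann cell and nerve genes, 3 were higher and none lower (median 0.69), and 1 was higher without 6-OHDA library 1 or 3. Pmp22, a protein of myelin that fibroblasts make too, differed by 0.82 (SE 0.17, adjusted p = 0.00628).

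Of 17 genes of adrenergic receptors and cAMP, 3 were higher and 3 lower (median 0.05), close to the 17.2% and 17.7% of all genes, while 9 were higher and none lower on own totals (median 0.46). On the authors' scale no more than 1 in either direction passed without 6-OHDA library 1, 2 or 3 or without sham library 1, 3 or 4. Of 9 CREB targets, the genes that cAMP switches on, 3 were lower and none higher, and the median of -0.13 turned to 0.28 on own totals, where 1 was lower and 1 higher. Nr4a1, an orphan nuclear receptor induced by adrenergic drive, had 24.9, 31.9, 43.2 and 42.8 FPKM in 6-OHDA muscle, against 118, 79.2, 66.6 and 82.6 FPKM in sham muscle (log2 difference -1.28, SE 0.22, adjusted p = 0.00307). Nr4a2, its relative, had 0.758, 0.491, 0.613 and 0.4 FPKM in 6-OHDA muscle and 0.927, 1.56, 0.996 and 1.59 FPKM in sham muscle (log2 difference -1.15, SE 0.29, adjusted p = 0.0139), and missed the threshold on own totals (adjusted p = 0.1). CREB binds TGACGTCA and its half-site TGACG, which was searched on both strands and is held by 20.9% of the 27025 promoters and by 32.9% of the 8740 of tested genes. The 3 lower targets all held it, as did 6 of 7 CREB targets with a promoter in the table (85.7%), so it does not set the lower ones apart. The Nr4a1 window (GRCm38.p6, chr15:101266596-101266895, plus strand) is shown as the CREB target with the largest fall, with its 4 half-sites, all read as CGTCA on this strand, in capitals:
Nr4a1: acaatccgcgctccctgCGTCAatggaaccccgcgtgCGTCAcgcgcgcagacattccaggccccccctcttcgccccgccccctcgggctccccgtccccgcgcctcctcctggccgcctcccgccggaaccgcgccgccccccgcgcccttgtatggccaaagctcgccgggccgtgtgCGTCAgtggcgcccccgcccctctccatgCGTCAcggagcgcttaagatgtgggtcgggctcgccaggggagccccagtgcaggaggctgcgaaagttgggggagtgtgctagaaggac

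Clock genes were lower where they changed. Of 19 clock genes, 9 were lower and none higher (median -0.43, and -0.02 on own totals, where 3 were higher and 2 lower). Arntl, the activator BMAL1, had 9.31, 9.12, 10.6 and 10.3 FPKM in 6-OHDA muscle, against 15.1, 14.4, 11.7 and 15.7 FPKM in sham muscle (log2 difference -0.53, SE 0.12, adjusted p = 0.00859), and its partner Clock did not pass (-0.24, adjusted p = 0.185). Hlf, an output factor, was at 0.291 to 0.397 FPKM in 6-OHDA muscle and 0.468 to 1.37 FPKM in sham muscle (log2 difference -1.52, SE 0.39, adjusted p = 0.0146), a call lost without sham library 1 or 3 (adjusted p up to 0.0518). The repressors Cry1 (-0.43, adjusted p = 0.00758) and Bhlhe40 (-0.71, adjusted p = 0.00568) kept their calls without each library in turn. Per1 (-0.87, adjusted p = 0.0183) lost its call without 6-OHDA library 3 (adjusted p = 0.0532), and Nr1d1 (-0.56), Nfil3 (-0.77) and Ciart (-0.83) lost theirs without 3 or more libraries (adjusted p up to 0.0739, 0.112 and 0.079). Per2, Per3, Cry2, Nr1d2, Rora, Dbp, Tef, Npas2 and Bhlhe41 did not pass, their differences running from -0.59 for Rora to 0.59 for Per2. On own totals Hlf was among the 2 that passed as lower (adjusted p = 0.036), while Arntl, Cry1, Bhlhe40, Per1, Nr1d1, Nfil3 and Ciart did not pass. A further lower gene of the list is not reported here.

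Of 13 genes that glucocorticoids induce, 5 were lower and 2 higher, with differences from -1.98 to 1.53. The median of -0.38 turned to 0.03 on own totals, where 1 was lower and 4 were higher. The lower count was 1 without 6-OHDA library 3, and 3 without 6-OHDA library 1 or 2 or sham library 3 or 4. Arrdc2, an arrestin-domain protein, had 2.24, 2.23, 1.64 and 2.56 FPKM in 6-OHDA muscle, against 4.91, 7.81, 6.32 and 21.6 FPKM in sham muscle (log2 difference -1.98, SE 0.39, adjusted p = 0.00529), sham library 4 being far above the rest. Fkbp5, a chaperone of the steroid receptor, had 1.47, 1.37, 1.54 and 2.25 FPKM in 6-OHDA muscle and 2.76, 2.86, 2.13 and 5.13 FPKM in sham muscle (log2 difference -0.90, adjusted p = 0.0249), and its call was lost without 6-OHDA library 1, 2 or 3 (adjusted p up to 0.0635). Klf15, a glucocorticoid-responsive factor of the atrophy list, had 4.51, 7.7, 6.3 and 10.3 FPKM in 6-OHDA muscle and 17.3, 13.5, 14.4 and 16.8 FPKM in sham muscle (log2 difference -1.16, SE 0.22, adjusted p = 0.00484). The remaining named falls were Rasd2, a small G protein, with 0.201, 0.38, 0.397 and 1.02 FPKM in 6-OHDA muscle and 3.5, 1.68, 5.52 and 3.53 FPKM in sham muscle (log2 difference -2.93, SE 0.48, adjusted p = 0.00271), and Rnase13 (log2 difference -2.57, SE 0.44, adjusted p = 0.00314).

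Genes of vessels, fat, tendon and blood were looked at next. Of 17 endothelial genes, 1 was higher and 1 lower (median 0.08). Pecam1, the platelet and endothelial adhesion molecule, had 30.5, 32.5, 24.8 and 28.9 FPKM in 6-OHDA muscle, against 18.2, 21.8, 11.5 and 17.2 FPKM in sham muscle (log2 difference 0.79, SE 0.18, adjusted p = 0.0104), while Kdr, the main receptor of VEGF, overlapped fully (log2 difference -0.07, adjusted p = 0.848). Adipocyte genes were higher in 4 of 7 cases and lower in 1. Among them, Adipoq passed the filter through the injected muscles alone. All 11 adipocyte genes in the table summed to 1166 to 2149 FPKM in 6-OHDA muscle and 1688 to 2506 FPKM in sham muscle. These sums overlap, with the lower mean in 6-OHDA muscle. Adipoq, adiponectin, had 2.65, 1.3, 2.15 and 1.75 FPKM in 6-OHDA muscle, against 0.272, 0.298, 0.638 and 0.225 FPKM in sham muscle (log2 difference 2.49, SE 0.36, adjusted p = 0.00176), but Fabp4, which endothelium also makes, differed by -0.47 (adjusted p = 0.024, lost without 6-OHDA library 1 or 3 or sham library 4 at up to 0.0712). Tendon genes were higher in 4 of 6 cases and lower in none, and the 4 tendon and cartilage markers summed to 18.5 to 39.4 FPKM in 6-OHDA muscle and 12.9 to 17.8 FPKM in sham muscle. Tnmd, tenomodulin, differed by 1.24 (SE 0.30, adjusted p = 0.0128). The part of tendon or fat in the dissected tissue in the matrix values was not tested. The 3 erythroid markers summed to 88.6 to 124 FPKM in 6-OHDA muscle and 127 to 199 FPKM in sham muscle. Of 5 erythroid genes 3 were lower, 0 without 6-OHDA library 1 or 2, 1 without sham library 1 or 3, and 5 without 6-OHDA library 4, and none was lower on own totals. Hba-a1, a globin whose near-identical copy makes its reads uncertain, differed by -0.51 (adjusted p = 0.0237), a call lost without 6-OHDA library 1 or 2 (adjusted p up to 0.0566). Of 11 housekeeping genes, 4 were higher and 1 lower. Actb (0.50, adjusted p = 0.0914) and Gapdh (-0.58, adjusted p = 0.0503) did not pass.

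The same contrast at ZT12, the start of the dark phase, was available from 4 6-OHDA and 3 sham muscles of wild-type mice. In a fit of all 4 groups, 2521 genes were higher (21.0%) and 2854 lower (23.8%) at ZT0, and 1589 were higher (13.2%) and 913 lower (7.6%) at ZT12. Of the genes higher at ZT0, 1411 were higher at ZT12 too, which is 56.0% of the ZT0 genes and 88.8% of the ZT12 genes, and of those lower at ZT0, 751 were lower at ZT12 too (26.3% and 82.3%). These counts do not show that the effect differed between times. The difference itself passed for 2 of 12012 genes (0.0167%) and had an unadjusted p under 0.05 for 695. For the mitochondrial genome the median was -1.84 at ZT0 and -0.84 at ZT12, and 3 of its 15 genes were lower at ZT12. For the clock list the medians were -0.43 at ZT0 and -0.07 at ZT12. No gene of either list passed the test of the difference.

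The 2 genes were Klf2 and Apold1, both known from endothelium, where blood flow induces Klf2. Klf2 had 13.7, 9.91, 11.6 and 9.36 FPKM in 6-OHDA muscle at ZT0, against 20.6, 15.9, 23.8 and 19.6 FPKM in sham muscle (log2 difference -0.84, SE 0.16, adjusted p = 0.00425). At ZT12 it ran at 11 to 21 FPKM in 6-OHDA muscle and at 6.89 to 7.79 FPKM in sham muscle (log2 difference 1.23, adjusted p = 0.00442), so the groups were apart at both times in opposite directions. The effect at ZT0 minus that at ZT12 was -2.07 (SE 0.28, adjusted p = 0.0276). Apold1, on chromosome 6, had 2.46, 2.03, 1.91 and 1.94 FPKM in 6-OHDA muscle at ZT0, against 3.37, 3.65, 3.16 and 4.48 FPKM in sham muscle (log2 difference -0.80, SE 0.14, adjusted p = 0.0035), and 2.14 to 4.72 FPKM in 6-OHDA muscle and 0.626 to 1.4 FPKM in sham muscle at ZT12, a difference between times of -2.52 (SE 0.36, adjusted p = 0.032). On own totals the ZT0 falls of Klf2 and Apold1 missed the threshold (adjusted p = 0.072 and 0.11). In both genes every sham library at ZT0 lay above every sham library at ZT12. The other endothelial genes did not pass the test of the difference. Neither did Klf2 and Apold1, or any gene, without 6-OHDA library 2 or 3 or sham library 1, 3 or 4 of ZT0, or without 6-OHDA library 5, 6 or 7 or sham library 7 of ZT12, while 1 gene passed without 6-OHDA library 1 or sham library 2 of ZT0 or sham library 6 of ZT12, 4 passed without sham library 5 of ZT12 and 6 without 6-OHDA library 4 of ZT0. With age as a covariate, or with all 8 groups of the series in the fit, no gene passed (877 and 245 at an unadjusted p under 0.05). The next genes by p, Gm16118 (-1.50), mt-Tl2 (-1.92) and Dusp1 (-1.06), did not pass (adjusted p = 0.325 each). Fos, an immediate early gene, did not differ by the test at ZT0 (0.40, adjusted p = 0.231) and was higher at ZT12 (1.85, adjusted p = 0.004), and its difference between times did not pass.

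**Figure D5:**
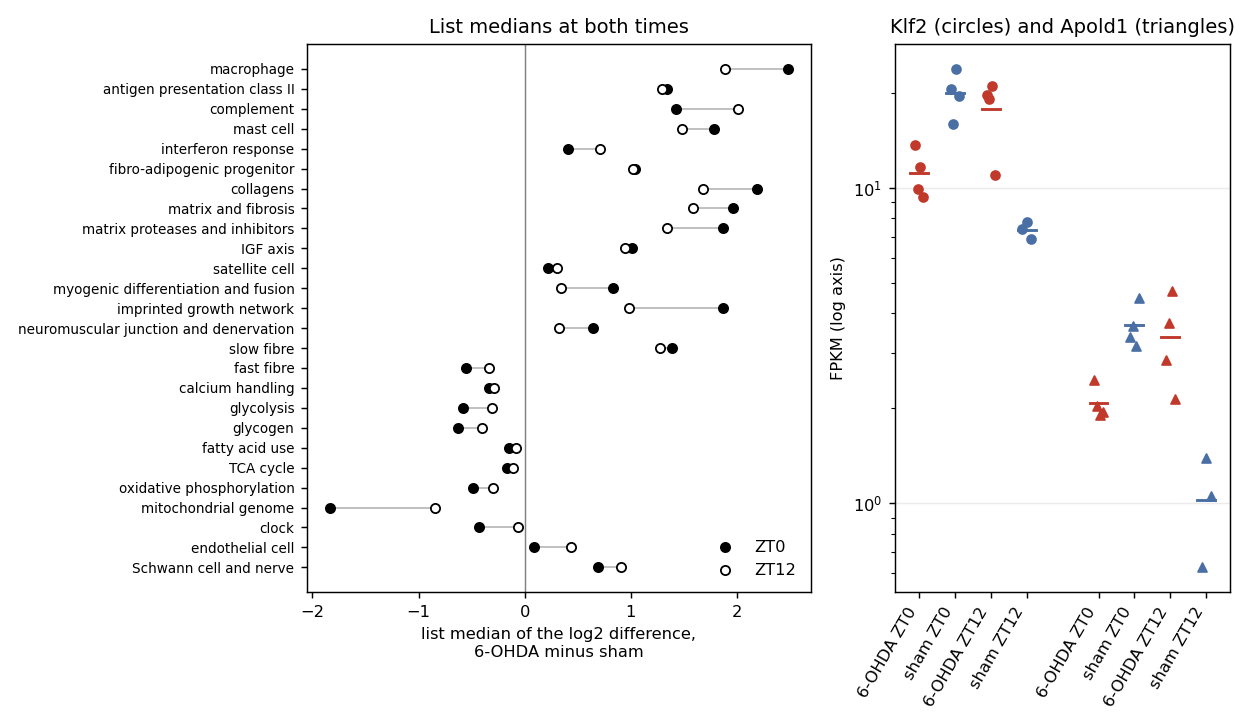
Left, the median log2 difference, 6-OHDA minus sham, of each gene list at ZT0 (filled) and ZT12 (open) in wild-type muscle. Right, FPKM on a log axis of Klf2 and Apold1 in each library (line at the mean), where 6-OHDA lies below sham at ZT0 and above it at ZT12.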

How the data were processed

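Per the submitters' processing notes, reads were counted with featureCounts 1.6.2 and normalised with edgeR 3.30.0 after mapping by HISAT2 2.1.0 to GRCm38, with FastQC 0.11.8 and Trim Galore 0.5.0 also listed. The authors deposited log2 values of FPKM for 14500 Ensembl genes in 23 libraries, and the lowest value, -6.64, fits an added 0.01. Symbols and lengths came from GENCODE M21 for 14435 genes. Genes with at least 1 FPKM in at least 2 of the 8 libraries were tested with limma 3.58.1 (intensity trend, R 4.3.3) on the deposited log2 scale, with Benjamini-Hochberg adjustment over all 12012. The test of the difference between times used the 4 wild-type groups. The table is not counts, but its low values are whole multiples of the value of 1 read (93.1% to 94.6% of such values in 6-OHDA and 88.4% to 91.6% in sham libraries lay within 0.1 of a whole read), which gave the recovered reads. These came to 0.839 to 1.04 times the library sizes that the values were scaled by in 6-OHDA and 1.15 to 1.32 times in sham, and "own totals" divides by the recovered reads instead. Promoters and the microRNA are RefSeq sequences.

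Nothing says that same-numbered mice belong together. Same-numbered libraries correlated at -0.0751 to 0.0985 in their deviations from the group means, so they were not paired. The gene lists and members were chosen with earlier results of these data known. Genes named were the 10 largest rises and falls, up to 4 members of a list with the smallest p, the first 3 of a list, members against their list, the clock list, and the 5 with the smallest p for the difference between times. From this set those described above were taken, and some are not reported here. Cd163, Cd79b, Spp1, Lyve1, Mmp13, Myh3, Myh8, Chrng, Chrne, mt-Co1, Slc18a2, Chga and Gap43 were named after their values were seen. Whether counting used strand is not given in the sources used here. Labels do not say more of the mice than that they are separate samples, so p-values measure the spread between these. Alternatives were other scalings, filters, pooled groups, age as a covariate, array weights, limma-voom on recovered reads, a replicate block and leaving out each library; own totals without the mitochondrial genome, and leaving out 6-OHDA library 4 with sham library 2, were added after seeing the data.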

Additional observations from a re-analysis of the deposited data

Results flagged for a closer look

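In groups of 4 libraries, a library whose gap to the nearest other was above Dixon's critical value, as a share of the group's range, was set aside for a second look. This held for 18 of 326 groups of named values (5.52%), against about 1 in 20 by chance. In sham library 1 these were Spp1 at 8.13 FPKM, Mmp13 at 6.49 FPKM, Myh1 at 2251 FPKM, mt-Tm at 33.4 FPKM and Hba-a1 at 78.0 FPKM, each above its group. In sham library 2 they were Cx3cl1 at 1.69 FPKM, Fst at 1.94 FPKM, Tgfb1 at 5.37 FPKM and Chrne at 14.3 FPKM, above the group, and Atf4 at 83.6 FPKM, below it. Sham library 3 had Rnase13 at 2.79 FPKM, below its group. In 6-OHDA library 4 they were Mstn at 8.48 FPKM, mt-Tq at 2.79 FPKM, Rnase13 at 1.80 FPKM and Hlf at 0.397 FPKM, all above the group and nearest to the sham range. 6-OHDA library 2 had Hmox1 at 5.53 FPKM, below its group, and Vegfa at 55.3 FPKM, above it, and 6-OHDA library 1 had Fos at 12.9 FPKM, above it.

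The 6-OHDA effect differed between ZT0 and ZT12, by the test of that difference, for Klf2 (-2.07) and Apold1 (-2.52). No gene passed in limma with age as a covariate, with all 8 groups in the fit, or without any of 9 single libraries named above.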

How the results depend on the processing

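Against 2071 genes higher and 2125 lower, the counts with each library scaled to its own recovered reads were 4996 higher and 483 lower, and without the mitochondrial genome in those totals 3479 and 823. A filter on the mean (log2 FPKM of 1 or more) left 1276 higher, and sharing the spread of all 8 groups left 1321 lower. Without 1 library in turn, the total of 4196 ran from 2791 (without 6-OHDA library 1) to 4733, the higher genes from 1479 to 2286 and the lower genes from 1312 to 2447. A replicate block gave 2027 higher and 2158 lower genes, but the numbers do not pair the mice. For the difference between times, 2 genes became 0 with age as a covariate, 0 with all 8 groups, 18 with array weights, and 0 to 6 without 1 library. With age as a covariate, 877 genes had an unadjusted p under 0.05, with all 8 groups 245 did and with array weights 2234 did. The mitochondrial share difference of -14.95 points ran from -17.10 to -13.56 without 1 library, was -9.00 in recovered reads and -13.99 for protein-coding genes. Without sham library 1 (-14.23) or sham library 3 (-13.74) its exact permutation p was 0.0571, 0.0286 being the smallest possible with all 8 libraries. Cs turned round on own totals, to 0.31. Of 133 named genes that passed, 109 passed without each library in turn. On own totals 21 of 157 named genes lost their call and 7 gained one. Quantile normalization, which sets the highest ranks of all libraries equal by construction, ended the calls of 19 named genes, among them Myh4, Actn3, Pvalb, Cox6a2, mt-Nd1 and mt-Co1. Depth limits genes with few reads, such as Mir453 and mt-Tq.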
